A study of Mus musculus with 30 samples.

Results

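The genes described here are 40 mouse genes that carry out mitosis and chromosome segregation, from the cyclins and kinases that start mitosis to the proteins that condense, attach, pull apart and enclose the chromosomes. They were chosen by name, and all 40 symbols were found among the 23986 genes of the deposited expression table. The table holds 30 arrays (Affymetrix Mouse Gene 2.0 ST), which fall into 10 groups of 3, and all levels are on a log2 scale, so that a difference of 1 is a doubling. The groups followed a stepwise differentiation of mouse embryonic stem cells (ESCs) towards kidney, with mouse kidneys as the reference.

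Undifferentiated ESCs were of a single line, 1B10, kept on mitomycin C-treated mouse embryonic fibroblasts. ESC-derived mesoderm had been primed with Fgf2 and activin A and then induced with Bmp4, activin A and Fgf2. Intermediate mesoderm had further been given Y27632 (a ROCK inhibitor), retinoic acid and activin A, and progenitors Bmp7 and Fgf2. Organoids were made by aggregating the progenitors on an air–liquid interface in medium with fetal bovine serum, which the progenitor medium did not list. They were given Y27632 overnight and then CHIR99021 (a Wnt pathway activator) and Bmp7 for a day, and were sampled as 8D, 14D and 21D organoids. The kidneys were dissected from mice at E12.5, at E13.5 and as adults. The labels do not say whether the 3 arrays of a group came from separate cultures or animals. The p-values thus measure only the spread between these samples, taken for each gene as shared by all groups.

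A dividing cell builds these products anew in each cycle and removes many of them at its end. Cdk1 joined to cyclin A or cyclin B starts mitosis, condensin packs the chromosomes, the spindle checkpoint holds them until each is attached on both sides, and the anaphase-promoting complex then frees separase to split them. Most of the genes are transcribed late in the cycle and are low in resting cells. Their control runs largely through the DREAM complex, B-Myb and Foxm1, which act at promoter elements named CHR (cell cycle genes homology region). Many of their promoters also hold a separate element named CCAAT. In the mouse kidney, cells of the embryonic organ divide actively whereas most cells of the adult organ rest. In bulk RNA, fewer dividing cells and less of these transcripts per cell cannot be told apart.

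The promoters are shown first, as a description, and no link between a motif and the course of a gene over the arrays was tested. A RefSeq table of promoters on GRCm38.p6, which runs from 250 bases before to 50 bases after each start, held 33 of the 40 genes with 36 starts, and did not list Ccna2, Cdc25c, Kif20a, Tpx2, Smc4, Aurkb and Incenp. The letters TTTGAA or TTCGAA (CHR) stood on either strand in 29 of the 36 promoters, or 80.6%, against 19.2% of all 32851 promoters. CCAAT stood on either strand in 80.6% against 37.4%, and both motifs in 75.0% against 7.52%. The E2F letters TTTCCCGC, TTTGGCGC, TTTGCCGC or TTTCGCGC stood in 3 of the 36, or 8.33%, against 2.26%, namely those of Cdk1, Ncapg and Ncapd2. Of the 33 genes, 24 held both CHR and CCAAT, and 5 held neither. A match is a description of the sequence and not a test of binding.

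The promoters of 9 genes are printed as the 150 bases before the start, 5′ to 3′ on the strand of the gene, in lower case with each CHR and CCAAT match, or its reverse complement, in capitals. Cdk1 (the kinase that starts mitosis, chr10:69352913-69353062, minus strand), Cdc20 (the activator of the anaphase-promoting complex, chr4:118437344-118437493, minus strand), Ube2c (its ubiquitin-conjugating enzyme, chr2:164769779-164769928, plus strand) and Kif11 (the motor that separates the spindle poles, chr19:37376232-37376381, plus strand) hold both motifs near the start and stand for the many members that moved together.
Cdk1: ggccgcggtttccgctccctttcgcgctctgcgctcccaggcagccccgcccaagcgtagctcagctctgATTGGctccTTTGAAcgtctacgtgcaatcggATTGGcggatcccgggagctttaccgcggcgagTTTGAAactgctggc
Cdc20: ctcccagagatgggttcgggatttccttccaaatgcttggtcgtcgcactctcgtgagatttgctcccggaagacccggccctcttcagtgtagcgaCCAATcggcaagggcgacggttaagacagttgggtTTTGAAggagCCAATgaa
Ube2c: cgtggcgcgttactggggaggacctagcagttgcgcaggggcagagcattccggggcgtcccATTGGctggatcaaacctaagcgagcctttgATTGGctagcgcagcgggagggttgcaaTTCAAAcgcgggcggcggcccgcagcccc
Kif11: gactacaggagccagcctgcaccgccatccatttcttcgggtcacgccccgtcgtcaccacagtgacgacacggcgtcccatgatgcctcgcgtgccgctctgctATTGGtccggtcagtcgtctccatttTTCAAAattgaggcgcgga
Mki67 (the Ki-67 protein that coats mitotic chromosomes, chr7:135716380-135716529, minus strand), Bub3 (a checkpoint protein, first of its starts, chr7:131560220-131560369, plus strand) and Ncapd2 (a condensin subunit, chr6:125191587-125191736, minus strand) also hold both, although their levels departed from those of the other members in the ways described below.
Mki67: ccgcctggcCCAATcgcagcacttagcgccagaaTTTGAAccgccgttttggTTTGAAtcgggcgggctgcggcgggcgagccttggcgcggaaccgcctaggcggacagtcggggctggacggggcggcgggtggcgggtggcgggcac
Bub3: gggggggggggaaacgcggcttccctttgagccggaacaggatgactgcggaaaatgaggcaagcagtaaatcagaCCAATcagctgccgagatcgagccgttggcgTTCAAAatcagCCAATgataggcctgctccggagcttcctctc
Ncapd2: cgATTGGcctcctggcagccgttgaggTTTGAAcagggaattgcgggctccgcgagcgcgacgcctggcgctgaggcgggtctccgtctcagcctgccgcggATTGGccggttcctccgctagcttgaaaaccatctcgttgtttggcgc
Ccnb1 (cyclin B1, chr13:100786487-100786636, minus strand) holds CCAAT alone and Pttg1 (securin, the inhibitor of separase, chr11:43425982-43426131, minus strand) neither.
Ccnb1: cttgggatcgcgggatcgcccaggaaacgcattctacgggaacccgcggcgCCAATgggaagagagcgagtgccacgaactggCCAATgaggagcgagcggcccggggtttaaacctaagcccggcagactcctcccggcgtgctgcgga
Pttg1: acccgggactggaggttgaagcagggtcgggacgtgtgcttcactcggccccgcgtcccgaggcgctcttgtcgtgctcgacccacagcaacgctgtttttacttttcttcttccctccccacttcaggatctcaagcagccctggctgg
The Pearson correlation of a member with the mean of the other members over the 30 arrays had a median of 0.987 and was above 0.9 for 39 of the 40. It was 0.993 for Ccnb1 and lowest for Pttg1, at 0.796. These correlations are a description, since all members share the arrays and the 3 adult arrays lie far from the rest.

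**Figure D1:**
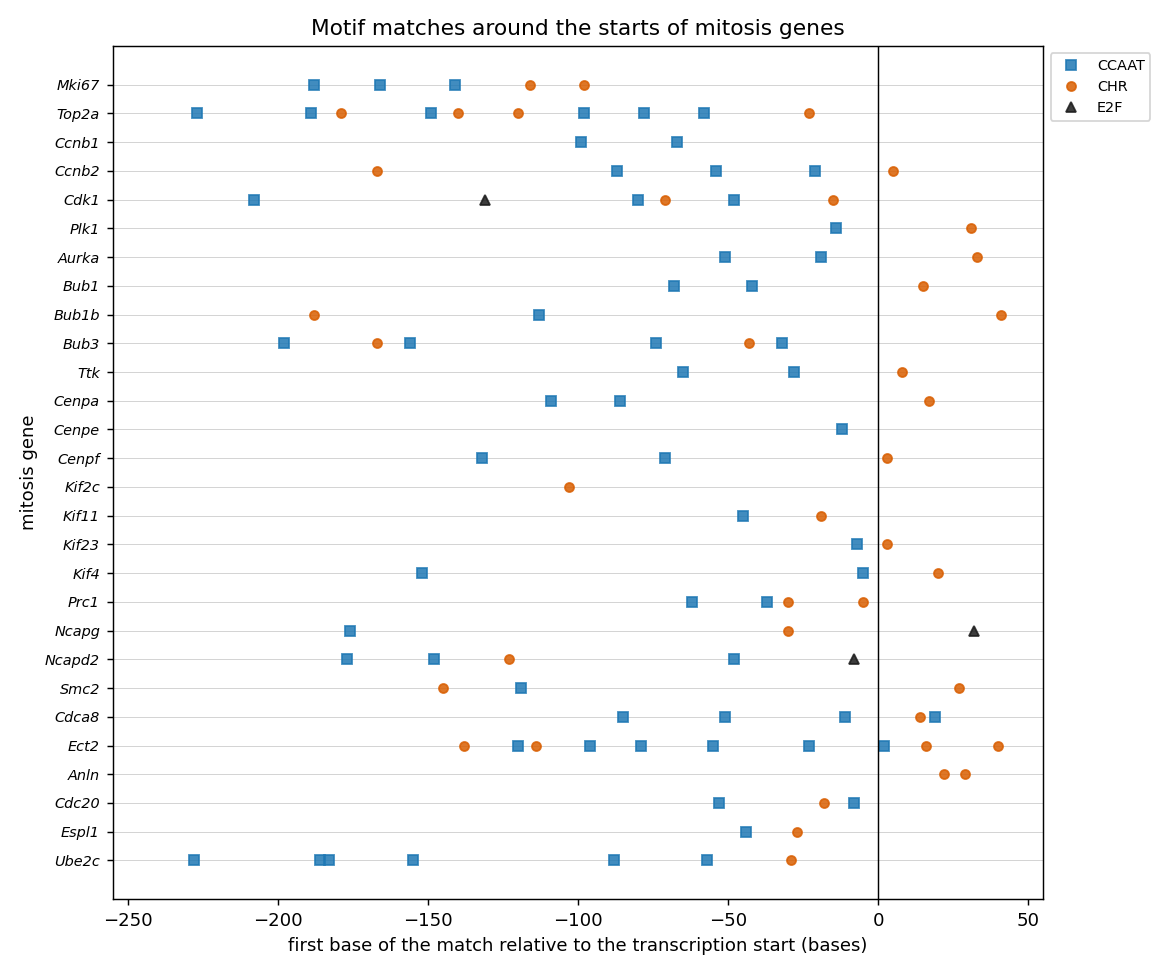
Positions of the CHR, CCAAT and E2F letters around the transcription start of the 28 mitosis genes with a match, with distance in bases on the x axis and 1 row per gene (genes with several starts have all their matches on 1 row). CCAAT matches lie mostly before the start, and CHR matches lie on both sides of it.

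The mean level of the 40 genes lay within a narrow band in ESC, mesoderm, intermediate mesoderm, 8D organoids and embryonic kidneys, was lower in progenitors and 21D organoids, and was far lower in the adult kidney. The mean level over the members was 9.57 ± 0.18 (SD, n = 3 arrays) in ESC, 9.53 ± 0.03 in mesoderm and 9.34 ± 0.10 in intermediate mesoderm. It was 8.42 ± 0.53 in progenitors, 9.33 ± 0.11 in 8D organoids, 8.90 ± 0.04 in 14D organoids and 8.50 ± 0.23 in 21D organoids. It was 9.31 ± 0.04 in E12.5 kidneys, 9.30 ± 0.07 in E13.5 kidneys and 5.41 ± 0.08 in adult kidneys. The difference between the highest and the lowest group mean of a gene had a median of 4.34 over the members, against 0.92 over all genes. All 40 members had their lowest mean in the adult kidney. Their highest mean was in ESC for 22, mesoderm for 11, E12.5 kidneys for 5, E13.5 kidneys for Bub3 and 8D organoids for Cenpf.

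**Figure D2:**
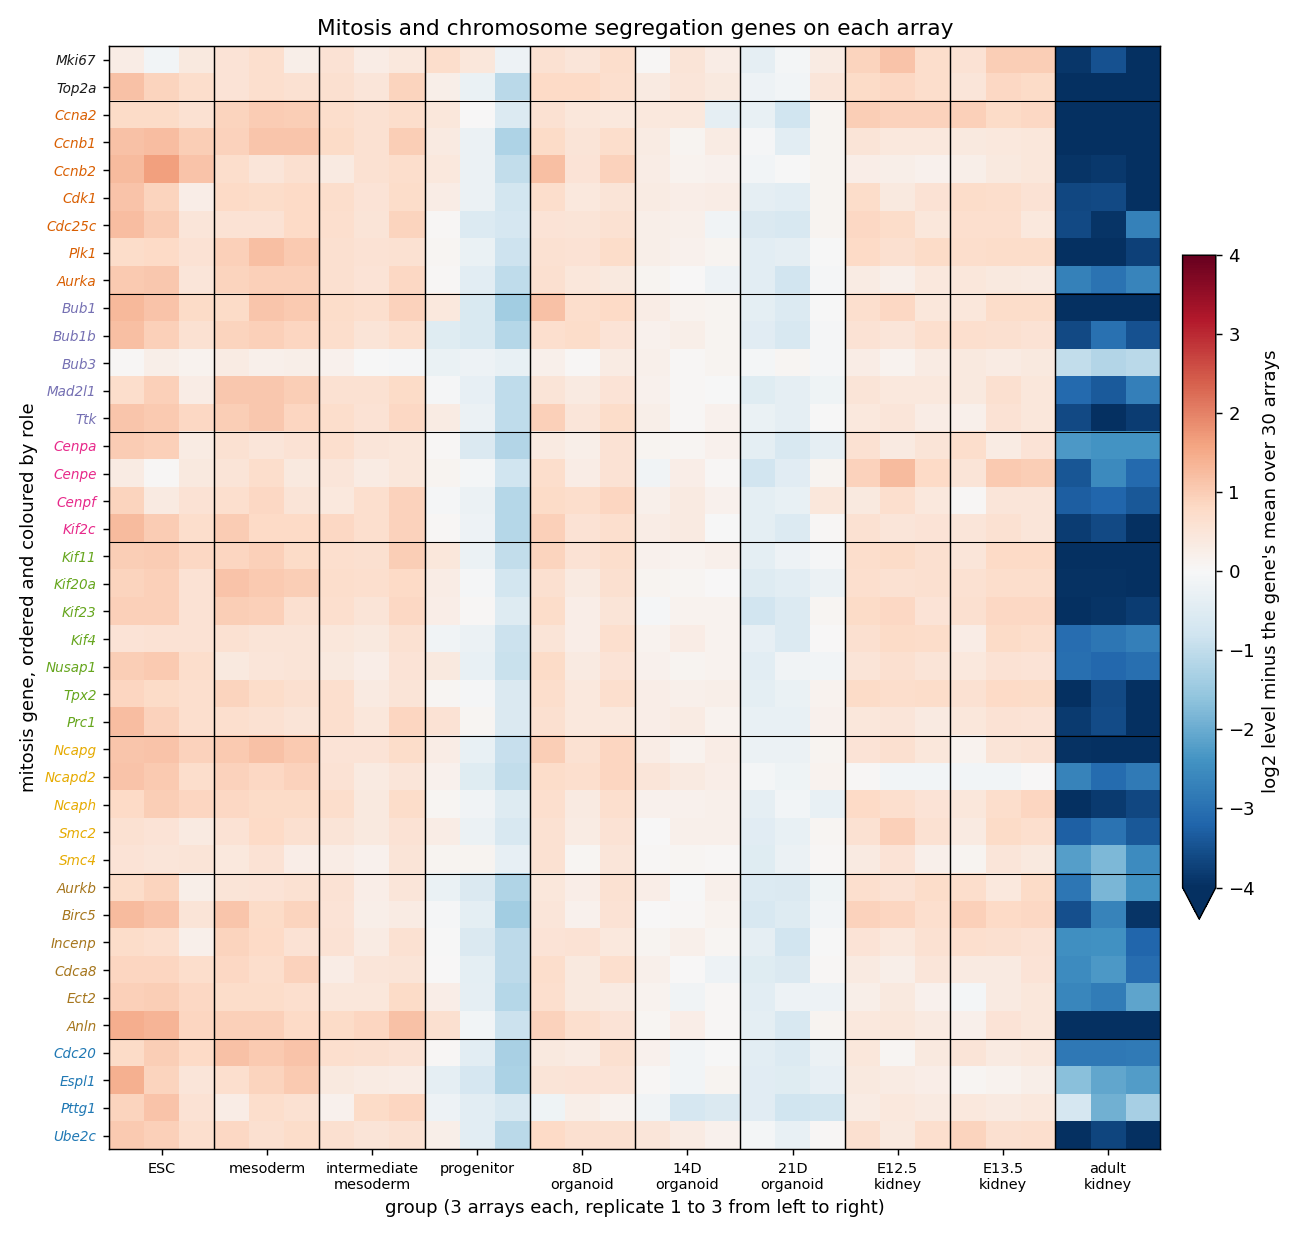
Each row is 1 of the 40 mitosis genes and each column 1 of 30 arrays, and the colour gives the log2 level minus the mean of that gene over the 30 arrays (values below the scale take the darkest blue). The 3 adult kidney columns are the darkest in nearly every row, progenitor replicate 3 is the bluest of the other columns, and Bub3 and Pttg1 are the rows with the smallest range of group means.

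Marker genes matched the labels in part. Markers of the adult tubule, such as the phosphate transporter Slc34a1, averaged 11.2 in adult kidneys and 4.78 to 4.87 in the other groups. Six2, a regulator of nephron progenitors, averaged 5.25 in the cells labelled progenitors and 10.04 in E12.5 kidneys, and Pax2 averaged 5.47 and 9.68. Other markers of the list of intermediate mesoderm and nephron progenitors were split. Osr1 and Eya1 had levels nearer to the kidney, whereas Lhx1 and Sall1 were lower in progenitors than in ESC. Osr1 averaged 7.83 in ESC, 10.49 in progenitors and 11.25 in E12.5 kidneys, and Eya1 averaged 6.92, 9.97 and 11.56. Lhx1 averaged 7.29, 4.39 and 8.13 in these groups, and Sall1 averaged 9.94, 8.33 and 10.22. The mean of all 8 markers of that list was 7.03 in progenitors, 6.76 in ESC and 9.98 in E12.5 kidneys. Markers of undifferentiated ESCs (Pou5f1, Nanog, Sox2, Zfp42, Dppa5a and Tdgf1) averaged 9.60 in ESC, and were still at 8.74 in 8D organoids. Their arrays ranged from 5.41 to 8.70 in progenitors and from 7.10 to 8.31 in 21D organoids, against 4.60 to 4.88 in embryonic kidneys. Of the 30 arrays, 5 were of batch 1 (replicate 1 of ESC, mesoderm, intermediate mesoderm, progenitors and E13.5 kidneys), and batch was a term of the fit, so that a fitted change can differ a little from the difference of the means. Values at the dim end of an array carry background. As a gauge, the 95th percentile of 1399 olfactory and vomeronasal receptor genes lay between 4.99 and 5.64 on the 30 arrays.

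Few of these genes differed between the first steps of differentiation. Of the 40 members, 1 passed an adjusted p of 0.05 between mesoderm and ESC (limma, Benjamini-Hochberg over all genes), where 11.7% of all genes passed (5.86% higher and 5.80% lower). It was Ccnb2, cyclin B2, a partner of Cdk1. Ccnb2 was 10.67, 11.02 and 10.52 in ESC and 10.08, 9.87 and 10.02 in mesoderm. All 3 mesoderm arrays were below all 3 ESC arrays, and the log2 fold change was −0.75 ± 0.22 (SE; adjusted p = 0.0242). Leaving out ESC replicate 2 or any mesoderm array ended the call, with adjusted p from 0.0522 to 0.152. The median change of the 40 members was −0.04, and 24 had a negative sign. The ESCs were kept on feeder cells, and the mean of the 8 fibroblast and feeder markers was 8.14, 8.70 and 8.85 on the ESC arrays. It was 6.77 to 7.32 on the mesoderm arrays, although Col3a1 averaged 6.46 in ESC and 6.78 in mesoderm. The part of the feeder cells in the levels of the mitosis genes was not tested.

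From mesoderm to intermediate mesoderm no member passed the limma test, where 7.05% of all genes did (3.15% higher and 3.90% lower). An unadjusted p under 0.05 was reached by 8 of the 40, and the share of all genes at that threshold is not given here. The smallest adjusted p was 0.0932, for Espl1 (separase, the protease that cuts cohesin), at −0.53 ± 0.19. Over the members the median change was −0.17, and 34 had a negative sign. All 3 intermediate mesoderm arrays were below all 3 mesoderm arrays for 17 members, against 16.0% of all genes. With array weights 8 members passed, and with these 6 arrays fitted alone 5 did. The mean of the 8 fibroblast and feeder markers was 6.77 to 7.32 on the mesoderm arrays and 7.90 to 8.23 on those of intermediate mesoderm. Fbln2 and Thy1 of that list averaged lower in intermediate mesoderm. The part of these cells was not tested.

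Progenitors expressed nearly the whole set at lower levels than the intermediate mesoderm they were made from. Of the 40 members, 38 were lower and 0 higher (limma), against 15.9% and 10.7% of all genes, and 18 of them fell by at least 2-fold. The median change was −0.98 over the members and 0.02 over all genes. The largest fall was that of Bub1b (BubR1, which holds back the anaphase-promoting complex in the checkpoint). Its levels were 8.75, 8.54 and 8.70 in intermediate mesoderm and 7.55, 7.42 and 6.90 in progenitors. The arrays of the groups did not overlap, and the change was −1.37 ± 0.17 (adjusted p = 2e-06). The groups did not overlap for 36 members, against 20.2% of all genes.

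The fall reached every role. All 7 cyclins and kinases were lower, with a median change of −0.95. Ccnb1 was 10.62, 10.46 and 10.81 in intermediate mesoderm and 10.19, 9.61 and 8.60 in progenitors, a change of −1.16 ± 0.23 (adjusted p = 0.00044). The progenitor arrays lay below those of intermediate mesoderm and were spread more widely among themselves. Aurka, the kinase that matures the spindle poles, fell by 1.12 ± 0.20 (adjusted p = 0.000146), and Cdc25c, the phosphatase that switches Cdk1 on, by 1.09 ± 0.24 (adjusted p = 0.00151).

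All 5 checkpoint genes were lower. Bub1, the kinase that gathers checkpoint proteins at kinetochores, was 9.18, 9.10 and 9.38 in intermediate mesoderm and 8.88, 7.84 and 7.04 in progenitors, a change of −1.30 ± 0.27 (adjusted p = 0.000734). Its progenitor arrays differed from each other by more than the groups did. Mad2l1, which binds Cdc20 while a kinetochore is unattached, fell by 1.13 ± 0.19 (adjusted p = 7.75e-05), and Ttk, the Mps1 kinase, by 0.99 ± 0.21 (adjusted p = 0.000844). Bub3 changed least of the 5, by −0.29 ± 0.10 (adjusted p = 0.0373).

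All 4 kinetochore and centromere genes, all 6 genes of the chromosomal passenger complex and cytokinesis, and all 4 genes of anaphase proteolysis were lower. Kif2c, a kinesin that frees wrongly attached microtubules, fell by 1.24 ± 0.22 (adjusted p = 0.000205). Cenpf, a protein of the outer kinetochore, fell by 1.14 ± 0.23 (adjusted p = 0.000565), and Cenpa, the histone that marks centromeres, by 1.11 ± 0.17 (adjusted p = 4.13e-05). None of these 3 overlapped between the groups. Aurkb, the kinase of the passenger complex, fell by 1.12 ± 0.22 (adjusted p = 0.000424) and Incenp, its scaffold, by 1.06 ± 0.20 (adjusted p = 0.000339). Cdc20 was 9.54, 9.49 and 9.43 in intermediate mesoderm and 8.91, 8.42 and 7.57 in progenitors, a change of −1.19 ± 0.19 (adjusted p = 4.83e-05). Each progenitor array was lower than each intermediate mesoderm array. Espl1 fell by 1.10 ± 0.19 (adjusted p = 9.58e-05) and Pttg1 by 1.03 ± 0.23 (adjusted p = 0.00167).

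All 7 kinesin and spindle genes were lower, with a median change of −0.74, nearer 0 than the median of any other role with more than 2 genes. Kif11 fell by 1.01 ± 0.22 (adjusted p = 0.00115) and Kif20a, a kinesin of the spindle midzone, by 0.88 ± 0.16 (adjusted p = 0.000184). Of the 5 condensin subunits 4 were lower, among them Ncapg, by 0.93 ± 0.22 (adjusted p = 0.00232), and Ncapd2, by 0.93 ± 0.17 (adjusted p = 0.000224). Smc4, a core subunit of condensin, did not pass, at −0.36 ± 0.18 (adjusted p = 0.146).

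The proliferation markers were split. Top2a, the topoisomerase that untangles sister chromosomes, was 10.48, 10.33 and 10.72 in intermediate mesoderm and 10.06, 9.57 and 8.76 in progenitors, a change of −1.05 ± 0.21 (adjusted p = 0.000583). Mki67 was 10.58, 10.30 and 10.42 in intermediate mesoderm and 10.69, 10.44 and 9.79 in progenitors, and changed by −0.12 ± 0.25 (adjusted p = 0.769). The Mki67 arrays of these groups overlapped, and only progenitor replicate 3 was below all of intermediate mesoderm.

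**Figure D3:**
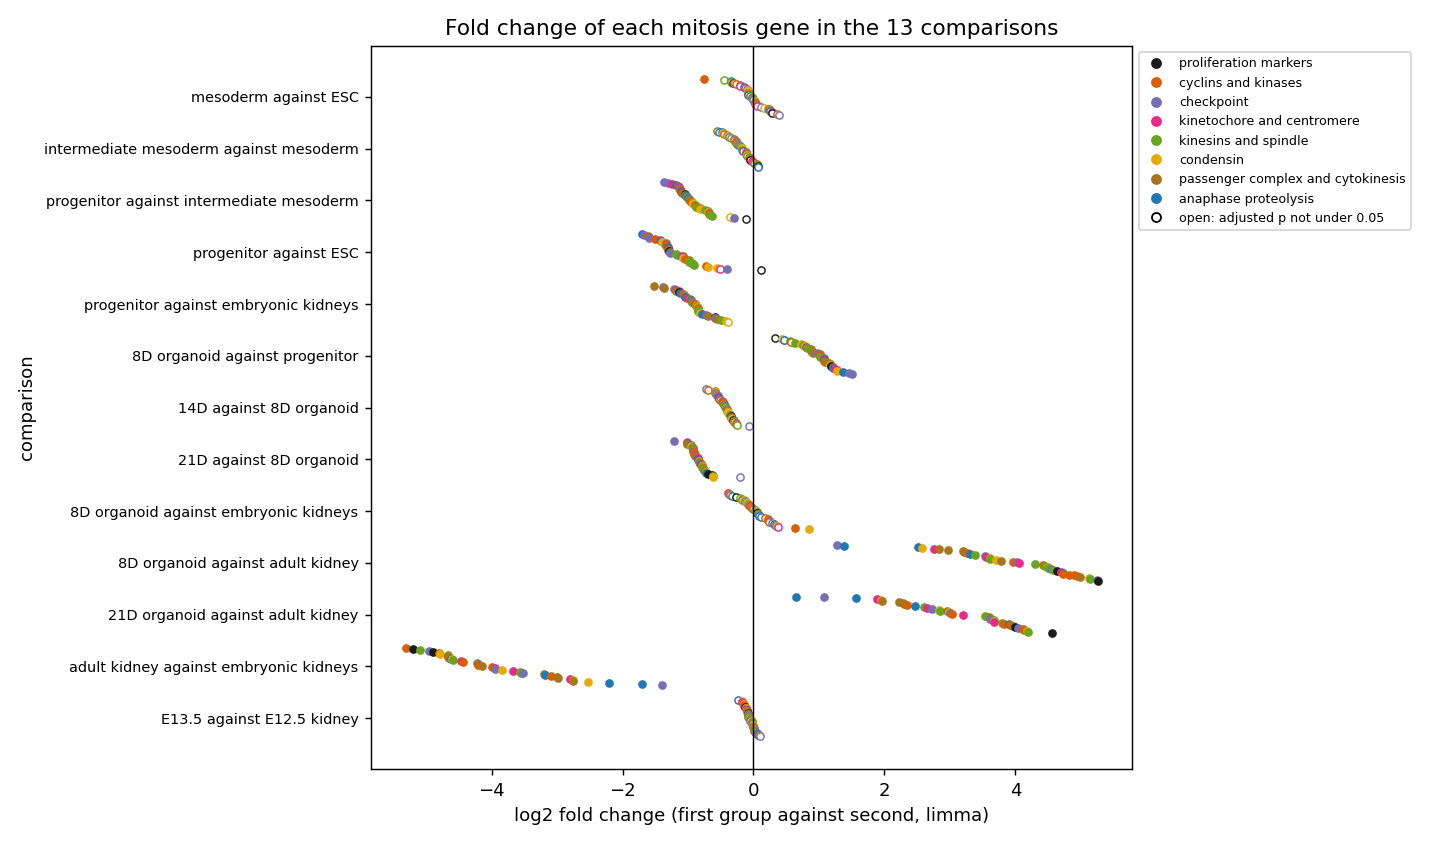
Log2 fold change of each of the 40 mitosis genes (points, coloured by role) in the 13 comparisons, with filled points for an adjusted p under 0.05. In progenitors against intermediate mesoderm 38 points are filled and negative, in 8D organoids against progenitors 36 are filled and positive, and in 8D organoids against embryonic kidneys 2 are filled.

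The 3 progenitor arrays differed more from each other in these genes than the arrays of any other group. The median SD of a member was 0.533 in progenitors and between 0.091 and 0.288 in the other 9 groups, and the median SD over all genes was 0.26 in progenitors and between 0.146 and 0.219 in the other 9 groups. Progenitors thus had the widest spread over all genes as well, and the lowest correlation between replicates over all genes, at 0.957. The fit used a spread for each gene that was shared by all 10 groups. The SE and p of the progenitor comparisons therefore tend to understate the spread of the progenitor arrays in these genes. The mean over the members was 8.91 on progenitor replicate 1, 8.48 on replicate 2 and 7.86 on replicate 3. Replicate 1 was the highest of the 3 for 38 members and replicate 3 the lowest for all 40. For 35 members progenitor replicate 3 was also the lowest of the 27 arrays outside the adult kidney. Replicate 1 was the array of batch 1. The difference between replicates 1 and 3 had a median of 1.06 over the members and −0.04 over all genes.

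Other markers moved with the members over these arrays. The mean of the 6 markers of undifferentiated ESCs was 8.70, 7.20 and 5.41 on progenitor replicates 1, 2 and 3, and 8.52, 8.50 and 9.19 in intermediate mesoderm. Of the 6, 4 were lower and 0 higher in progenitors. The mean of 8 markers of fibroblasts and feeder cells was 9.52, 10.12 and 10.13 on the progenitor arrays and 7.90 to 8.23 in intermediate mesoderm, and 7 of the 8 were higher. The part of these cells in the fall of the mitosis genes was not tested. Without progenitor replicate 3, 31 members were lower than in intermediate mesoderm, and with the arrays of batch 2 alone, 37 were. With the 6 arrays of these groups fitted alone, 13 were lower.

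**Figure D4:**
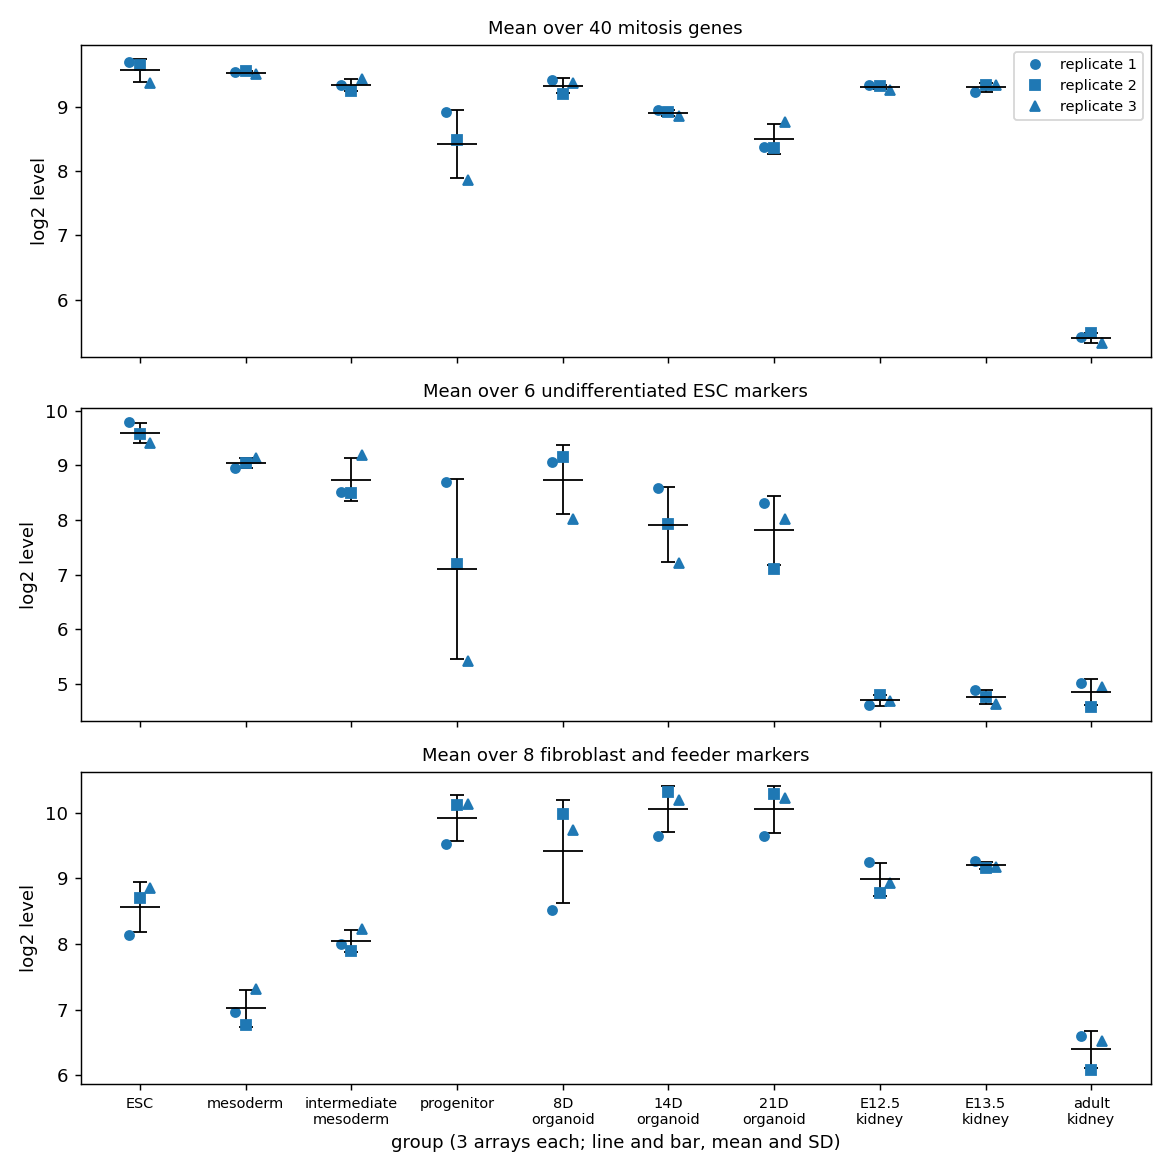
Mean log2 level of the 40 mitosis genes, of 6 markers of undifferentiated ESCs and of 8 markers of fibroblasts and feeder cells on each array (symbols by replicate), with the mean and SD of each group of 3. The progenitor arrays run from 8.91 to 7.86 in the upper panel and from 8.70 to 5.41 in the middle panel, and the adult kidney stands at 5.41 in the upper panel.

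Against ESC, 38 members were lower in progenitors and 0 higher, where 19.6% of all genes were lower and 14.8% higher. Their median change was −1.28, and 28 members fell by at least 2-fold. Espl1 fell most, from 9.05, 8.53 and 8.12 in ESC to 7.26, 6.95 and 6.36 in progenitors (−1.71 ± 0.19, adjusted p = 2.66e-07). Birc5 (survivin, which brings the passenger complex to centromeres) was 8.12, 8.01 and 7.39 in ESC and 6.81, 6.46 and 5.47 in progenitors (−1.60 ± 0.25, adjusted p = 2.07e-05). Neither gene overlapped between the groups. Bub1b fell by 1.67 ± 0.17 (adjusted p = 8.4e-08), Bub1 by 1.59 ± 0.27 (adjusted p = 4.77e-05) and Ccnb1 by 1.50 ± 0.23 (adjusted p = 1.41e-05). Kif2c fell by 1.43 ± 0.22 (adjusted p = 2.17e-05), Cdc20 by 1.41 ± 0.19 (adjusted p = 3.47e-06) and Top2a by 1.29 ± 0.21 (adjusted p = 3.28e-05). Ccnb2 fell by 1.61 ± 0.22 (adjusted p = 3.47e-06), Ncapd2 by 1.40 ± 0.17 (adjusted p = 9.15e-07), and Ect2, which directs the cleavage furrow, by 1.34 ± 0.23 (adjusted p = 5.35e-05). The exceptions were Mki67, at 0.11 ± 0.25 (adjusted p = 0.767), and Cenpe, a kinesin that carries chromosomes to the spindle equator, at −0.51 ± 0.24 (adjusted p = 0.1). Mki67 was 10.29, 9.89 and 10.40 in ESC, and these arrays overlapped with those of the progenitors. Of the markers of undifferentiated ESCs 5 of 6 were lower too, and of the fibroblast and feeder markers 6 of 8 were higher and 2 lower. The comparison with ESC shares the progenitor arrays with the one with intermediate mesoderm.

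Against the 6 embryonic kidney arrays, with the E12.5 and E13.5 groups averaged, 39 members were lower in progenitors and 0 higher, where 20.0% of all genes were lower and 14.2% higher. The members had a median change of −0.90. Birc5 differed most. It was between 7.54 and 7.83 in embryonic kidneys, with a median of 7.70, and changed by −1.52 ± 0.22 (adjusted p = 6.81e-06). Aurkb was between 8.26 and 8.60 in embryonic kidneys and 7.57, 7.26 and 6.61 in progenitors (−1.36 ± 0.19, adjusted p = 4.8e-06). Neither gene overlapped between the groups. Bub1b changed by −1.38 ± 0.15 (adjusted p = 1.09e-07), Bub1 by −1.21 ± 0.23 (adjusted p = 0.000242), Cenpe by −1.19 ± 0.21 (adjusted p = 8.09e-05) and Incenp by −1.18 ± 0.17 (adjusted p = 1.15e-05). Ube2c changed by −1.12 ± 0.17 (adjusted p = 1.19e-05) and Kif4, a kinesin that binds chromosome arms, by −1.05 ± 0.15 (adjusted p = 4.54e-06). Plk1, a kinase needed for spindle assembly and mitotic exit, changed by −1.08 ± 0.14 (adjusted p = 2.53e-06). Mki67 was lower here, at −0.59 ± 0.22 (adjusted p = 0.0397), and Smc4, at −0.39 ± 0.16 (adjusted p = 0.0607), was the member that did not pass. Of 8 markers of intermediate mesoderm and nephron progenitors 7 were lower in the progenitors, as were 4 of 5 endothelial markers and 7 of 11 of blood and macrophages, and 4 of the 6 markers of undifferentiated ESCs were higher. Of the 8 fibroblast and feeder markers 3 were higher and 0 lower, and their mean was 9.52, 10.12 and 10.13 on the progenitor arrays against 8.77 to 9.26 on the embryonic kidney arrays. Their part was not tested. Without progenitor replicate 3, 31 members passed.

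Expression of the set was higher again in the aggregated organoids. In 8D organoids, 36 members were higher than in progenitors and 0 lower, against 11.7% and 7.69% of all genes, with a median change of 1.02. Bub1 rose most, from 8.88, 7.84 and 7.04 in progenitors to 9.62, 9.16 and 9.24 (1.50 ± 0.27, adjusted p = 0.000387). Bub1b rose to 8.69, 8.78 and 8.57 (1.46 ± 0.17, adjusted p = 4.34e-06) and Espl1 to 8.13, 8.16 and 8.18 (1.37 ± 0.19, adjusted p = 2.48e-05). None of these 3 overlapped with the progenitor arrays. The groups did not overlap for 34 members, against 15.9% of all genes.

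By role, all 5 checkpoint genes, all 4 kinetochore and centromere genes, all 7 kinesin and spindle genes and all 6 passenger complex and cytokinesis genes rose. Kif2c rose by 1.25 ± 0.23 (adjusted p = 0.000424), Ccnb2 by 1.21 ± 0.22 (adjusted p = 0.00042), Top2a by 1.19 ± 0.21 (adjusted p = 0.000347) and Aurkb by 1.19 ± 0.22 (adjusted p = 0.000499). Kif11 rose by 1.02 ± 0.22 (adjusted p = 0.00195) and Cdc20 by 1.08 ± 0.19 (adjusted p = 0.000341). Cenpf rose by 1.27 ± 0.23 (adjusted p = 0.000425), Ncapd2 by 1.27 ± 0.17 (adjusted p = 1.88e-05) and Ube2c by 1.22 ± 0.20 (adjusted p = 0.00012). Of the cyclins and kinases 6 of 7 rose, of condensin 4 of 5 and of anaphase proteolysis 3 of 4. The 4 members that did not pass were Mki67, at 0.33 ± 0.26 (adjusted p = 0.413), Ccna2 (cyclin A2), at 0.57 ± 0.21 (adjusted p = 0.0616), Smc4, at 0.43 ± 0.18 (adjusted p = 0.112), and Pttg1, at 0.46 ± 0.24 (adjusted p = 0.183). Of the 6 markers of undifferentiated ESCs, 4 were also higher in 8D organoids than in progenitors, at 9.06, 9.15 and 8.01 on the organoid arrays. Of 5 endothelial markers 4 were higher and 1 lower, with array means of 6.52 to 7.70 in progenitors and 8.21 to 9.01 in 8D organoids. The part of either in the rise of the mitosis genes was not tested, and neither was that of the serum in the organoid medium. Without progenitor replicate 3, 30 members passed, and with these 6 arrays alone 17 did.

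Expression of the set was lower in older organoids. The group means ran from 8D down through 14D to 21D for 40 of 40 members. Between 14D and 8D organoids no member passed the limma test, where 2.07% of all genes did (1.63% higher and 0.442% lower). An unadjusted p under 0.05 was reached by 22 members, and the share of all genes at that threshold is not given here. The smallest adjusted p was 0.0918, for Ccnb2. The median change was −0.42, all 40 signs were negative, and the arrays of 36 members did not overlap, against 10.6% of all genes. Ccnb2 was 10.61, 9.95 and 10.32 in 8D organoids and 9.70, 9.53 and 9.56 in 14D organoids. With array weights 5 members passed, and with the arrays of batch 2 alone 1 did.

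Between 21D and 8D organoids 38 members were lower and 0 higher, against 5.54% and 5.95% of all genes, with a median change of −0.85. Bub1 fell from 9.62, 9.16 and 9.24 in 8D organoids to 8.06, 7.90 and 8.44 (−1.21 ± 0.27, adjusted p = 0.00436). Anln (anillin, a scaffold of the contractile ring) fell from 9.93, 9.68 and 9.57 to 8.64, 8.37 and 9.14 (−1.01 ± 0.24, adjusted p = 0.00742). Espl1 fell to 7.18, 7.13 and 7.30 (−0.95 ± 0.19, adjusted p = 0.00166). The 21D arrays of these 3 genes were all below the 8D arrays, as they were for 39 of the members, against 14.9% of all genes.

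Every role took part in that fall. The 7 cyclins and kinases were all lower, between −0.93 for Cdc25c and −0.77, as were all 5 condensin genes, with Ncapg at −0.95 ± 0.22 (adjusted p = 0.00527). Bub1b fell by 1.02 ± 0.17 (adjusted p = 0.000387), Kif2c by 1.02 ± 0.22 (adjusted p = 0.00435) and Cdc20 by 0.84 ± 0.19 (adjusted p = 0.0048). Kif20a fell by 0.92 ± 0.16 (adjusted p = 0.000572) and Cdca8 (borealin, of the passenger complex) by 0.93 ± 0.21 (adjusted p = 0.00517). Mki67, at −0.64 ± 0.25 (adjusted p = 0.106), and Bub3, at −0.20 ± 0.10 (adjusted p = 0.233), did not pass. Replicate 3 was the highest of the 21D arrays for 37 members. The mean of the ESC markers was 8.31, 7.10 and 8.02 on the 21D arrays, and 1 of the 6 was lower than in 8D organoids. The mean of the 5 endothelial markers was 8.51, 8.21 and 9.01 on the 8D arrays and 7.28, 8.15 and 7.90 on the 21D arrays, without overlap, and 1 of the 5 was lower. Fibroblast markers averaged 9.41 in 8D and 10.05 in 21D organoids with overlapping arrays, and 0 of 8 passed the limma test. Of 11 markers of blood and macrophages 3 were higher. The part of these cells was not tested. The number of members lower was 22 without 8D organoid replicate 1 and 22 without 21D organoid replicate 2, and 17 with these 6 arrays alone.

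8D organoids and embryonic kidneys differed in few of these genes. Of the 40 members 2 were higher in the organoids and 0 lower, against 9.11% and 12.0% of all genes, and the median change was 0.04. Ncapd2 was 9.61, 9.54 and 9.73 in 8D organoids and between 8.77 and 8.93 in embryonic kidneys (0.85 ± 0.15, adjusted p = 0.000153). Its arrays did not overlap, and the embryonic kidney values lay close together. Ccnb2 was between 9.57 and 9.86 in embryonic kidneys, with all 3 organoid arrays higher (0.63 ± 0.19, adjusted p = 0.0188). The call of Ccnb2 was lost without 8D organoid replicate 1 (adjusted p = 0.159) or replicate 3 (adjusted p = 0.0542). Cenpe, at −0.39 ± 0.21 (adjusted p = 0.201), and Ccna2, at −0.37 ± 0.18 (adjusted p = 0.169), had the most negative changes. Of the 6 markers of undifferentiated ESCs 5 were higher in the organoids, and of the 8 of intermediate mesoderm and nephron progenitors 8 were lower, as were 7 of 11 of blood and macrophages. Their part was not tested. With these 9 arrays alone, 2 members were higher and 3 lower.

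Between the E13.5 and E12.5 kidneys no member passed, with 0 of 40 at an unadjusted p under 0.05. In this comparison 0.00% of all genes passed the limma test (0 of 23986, with 465 at an unadjusted p under 0.05). The member changes lay between −0.24 and 0.10.

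The adult kidney differed from the embryonic kidneys in all 40 members, each lower, where 25.4% of all genes were lower and 24.3% higher. The median change was −4.07, and all 40 were lower by at least 2-fold. All 40 were also lower without overlap between the groups, against 24.1% of all genes. Ccna2 was between 10.54 and 10.74 in embryonic kidneys and 5.37, 5.40 and 5.17 in adult kidneys, a measured change of −5.31 ± 0.18 (adjusted p = 6.2e-18). Its adult levels lay close to the background gauge, which was 5.30, 5.32 and 5.20 on these arrays, so that the change cannot be read as an exact fold. Top2a was between 10.34 and 10.66 in embryonic kidneys and 5.40, 5.27 and 5.36 in adult kidneys (−5.20 ± 0.18, adjusted p = 1.09e-17). Mki67 was between 10.58 and 11.13 in embryonic kidneys and 6.12, 6.52 and 5.28 in adult kidneys (−4.89 ± 0.22, adjusted p = 1.43e-15). Kif11 changed by −5.09 ± 0.19 (adjusted p = 3.45e-17), Bub1 by −4.96 ± 0.23 (adjusted p = 3.18e-15) and Plk1 by −4.80 ± 0.14 (adjusted p = 4.14e-19). Tpx2, which activates Aurka on the spindle, changed by −4.67 ± 0.14 (adjusted p = 3.06e-19) and Ncapg by −4.78 ± 0.19 (adjusted p = 1.02e-16). On the adult arrays, 18 or 19 of the 40 members lay under the 95th percentile of the olfactory and vomeronasal genes of that array, and on the other 27 arrays 0 did, so that the adult levels of those members carry background. Kif11, Bub1 and Ncapg were among them on all 3 arrays. All 8 markers of the adult tubule were higher in the adult kidney and 7 of 8 fibroblast markers lower. Of the 8 markers of intermediate mesoderm and nephron progenitors 7 were lower, with array means of 9.94 to 10.02 in embryonic kidneys and 7.04 to 7.35 in adult kidneys. Of the 11 markers of blood and macrophages 6 were lower and 3 higher, with array means of 7.24 to 8.08 and 6.04 to 6.12. The part of these cells was not tested.

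The members that fell least in the adult kidney were Bub3, at −1.40 ± 0.09 (adjusted p = 1.5e-12), and Pttg1, at −1.70 ± 0.20 (adjusted p = 8.37e-08). Bub3 was 9.62, 9.43 and 9.54 in adult kidneys and between 10.77 and 11.02 in embryonic kidneys. The ranges did not overlap, and the adult levels of Bub3 were well above the background gauge. Pttg1 was 6.30, 5.05 and 5.62 in adult kidneys, where the gauge was 5.30, 5.32 and 5.20. Its adult levels thus carry background, and its change cannot be read as an exact fold. Smc4 came after them in the range over the groups, at 7.36, 7.76 and 7.04 in adult kidneys against 9.68 to 10.10 in embryonic kidneys (−2.53 ± 0.16, adjusted p = 8.19e-13). By role, the median change in the adult lay between −5.04 for the proliferation markers and −2.69 for anaphase proteolysis. The roles are not ranked by it, since the adult levels of 18 or 19 members lay under the background gauge.

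The organoids of 8D and of 21D were far above the adult kidney in these genes. All 40 members were higher and 0 lower in 8D organoids, against 22.7% and 22.1% of all genes, with a median of 4.04 and changes between 1.27 for Bub3 and 5.26 for Top2a. Kif11 was higher by 5.14 ± 0.22 (adjusted p = 5.84e-16), Ncapg by 5.13 ± 0.22 (adjusted p = 5.18e-16) and Bub1 by 5.25 ± 0.27 (adjusted p = 2.13e-14). The levels of Kif11, Ncapg and Bub1 lay under the background gauge on each adult array, so that these changes cannot be read as exact folds. All 40 were also higher and 0 lower in 21D organoids, against 24.4% and 24.0% of all genes, with a median of 3.12. Among these, Top2a was 9.65, 9.72 and 10.34 in 21D organoids (4.56 ± 0.21, adjusted p = 3.43e-15), and Ccnb1 was 9.80, 9.42 and 9.94 against 5.67, 5.74 and 5.36 in adult kidneys (4.13 ± 0.23, adjusted p = 1.11e-13). Neither overlapped with the adult arrays. Pttg1 changed least, at 6.52, 6.17 and 6.24 in 21D organoids and 6.30, 5.05 and 5.62 in adult kidneys (0.65 ± 0.23, adjusted p = 0.0218), and its groups overlapped. These comparisons share the adult arrays with each other.

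**Figure D5:**
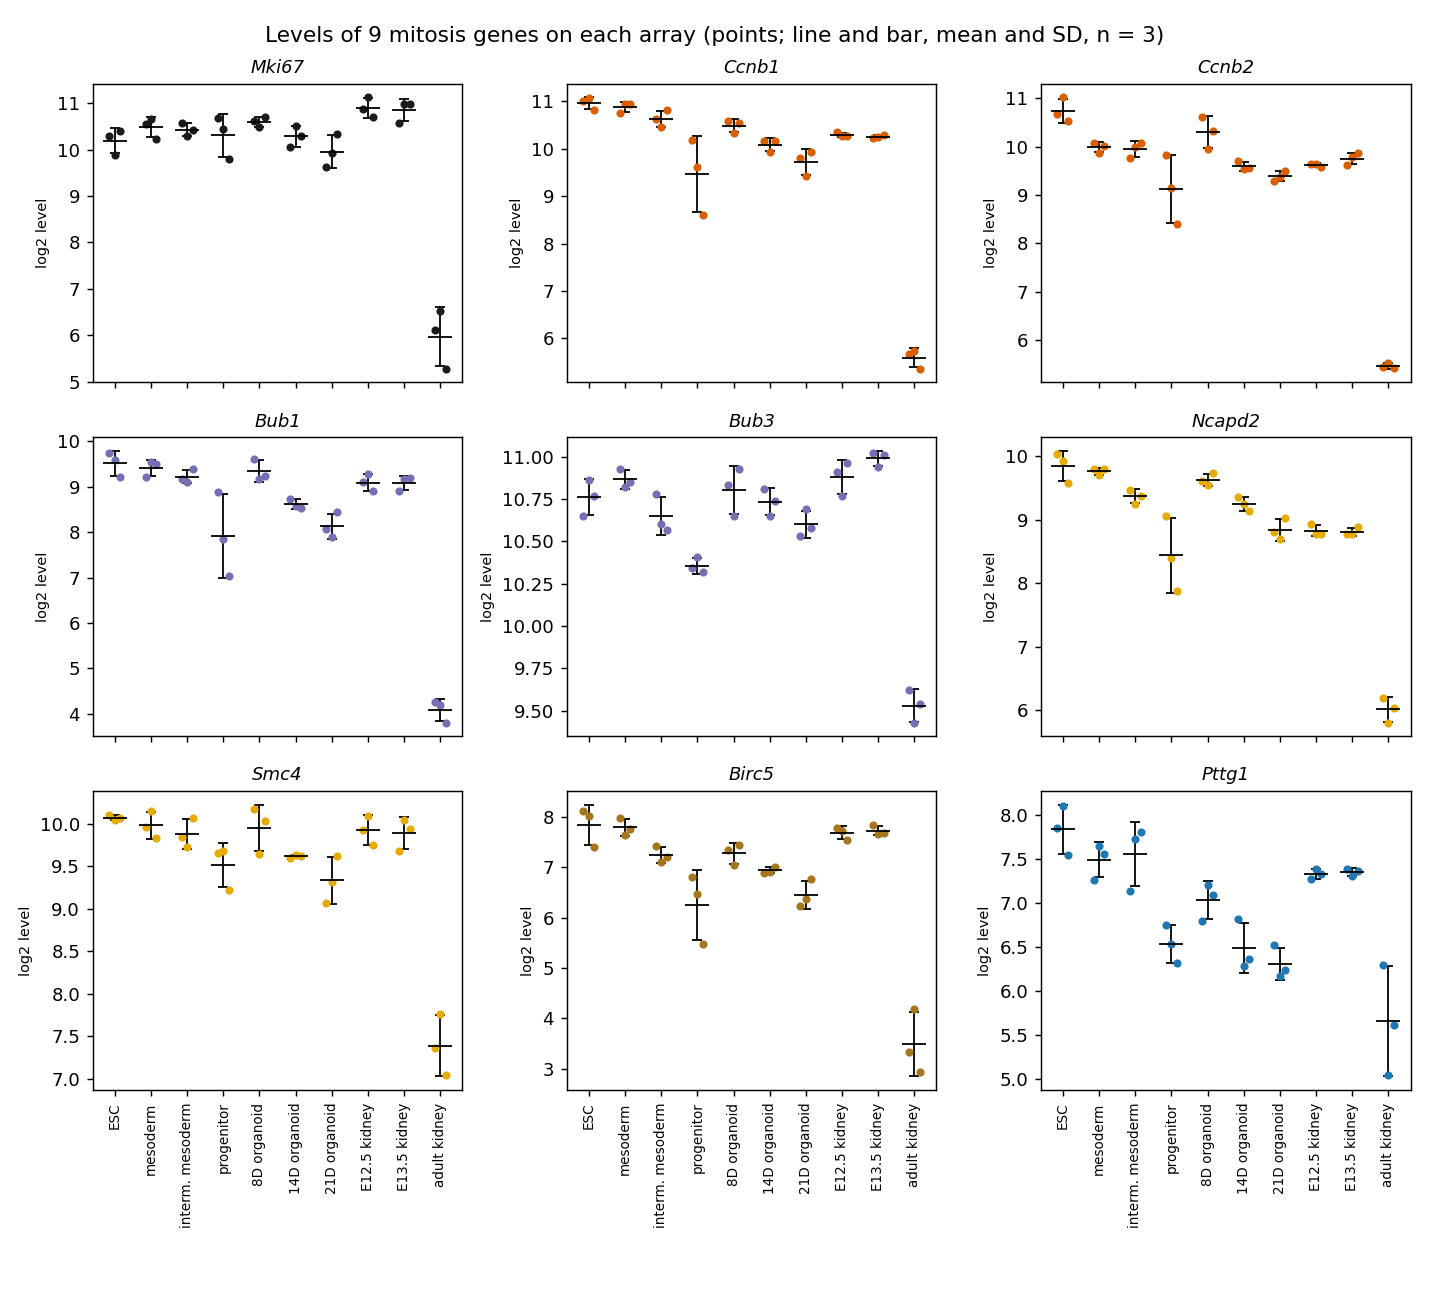
Log2 levels of 9 mitosis genes on each array by group (points), with the mean and SD of 3 arrays; the y axes differ between panels and do not start at 0. Ccnb1, Bub1 and Birc5 follow the course of the set, Mki67 has similar levels in progenitors and intermediate mesoderm, Bub3 spans 1.46 over its group means, Ncapd2 is higher in 8D organoids than in embryonic kidneys, and Pttg1 overlaps between 21D organoids and the adult kidney.

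Other genes of mitosis moved in the direction of the 40 members in part. Of 126 further genes in 6 lists, 122 were measured, and Hjurp, Anapc11, Ccnf and Lin52 were not analysed here. Between progenitors and intermediate mesoderm 81 of the 122 were lower and 3 higher, against 15.9% and 10.7% of all genes. From progenitors to 8D organoids 78 were higher and 2 lower, against 11.7% and 7.69% of all genes. From 8D to 21D organoids 69 were lower and 2 higher, against 5.54% and 5.95%. Compared with embryonic kidneys the adult kidney had 111 lower and 4 higher, against 25.4% and 24.3%. The lists of kinetochore and centromere genes (26 of 31 lower in progenitors than in intermediate mesoderm) and of spindle, midzone and cytokinesis genes (23 of 28) had the largest shares of lower genes among the 6. Oip5, which helps load Cenpa onto centromeres, fell by 1.80 ± 0.26 in progenitors (adjusted p = 1.89e-05), and Cdca5 (sororin, which protects cohesin) by 1.57 ± 0.20 (adjusted p = 4.34e-06).

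The list of the anaphase-promoting complex had the median change nearest to 0. Of its 16 measured genes 5 were lower and 2 higher in progenitors than in intermediate mesoderm, against 15.9% and 10.7% of all genes, with a median change of −0.22. The share of higher genes was near that of all genes. Of the genes higher, Anapc16 rose by 0.68 ± 0.20 (adjusted p = 0.0143) and Cdc16 by 0.42 ± 0.13 (adjusted p = 0.0151). In 21D against 8D organoids 2 of the 16 were lower and 0 higher, against 5.54% and 5.95% of all genes. They were Fbxo5, at −1.01 ± 0.24 (adjusted p = 0.00807), and Ube2s, at −0.68 ± 0.21 (adjusted p = 0.0379). None of the Anapc and Cdc genes of the list passed there.

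Among the genes that control transcription late in the cycle, 11 of 18 were lower and 1 higher in progenitors than in intermediate mesoderm, against the same 15.9% and 10.7%. Mybl2, which encodes B-Myb, was 10.12, 9.66 and 10.41 in intermediate mesoderm, 9.21, 8.33 and 6.66 in progenitors and 10.53, 10.56 and 9.35 in 8D organoids. It fell by 2.00 ± 0.43 in progenitors (adjusted p = 0.00111) and rose by 2.28 ± 0.44 in 8D organoids (adjusted p = 0.000671). Its progenitor arrays had the same order as the member means. Foxm1 was 8.37, 8.16 and 8.02 in intermediate mesoderm, 7.84, 7.44 and 7.21 in progenitors and 7.82, 7.86 and 8.23 in 8D organoids, with changes of −0.68 ± 0.15 (adjusted p = 0.00165) and 0.52 ± 0.16 (adjusted p = 0.0206). Rbl2, which encodes the p130 pocket protein of the DREAM complex, moved against the members in some comparisons but not in all. In mesoderm it was lower than in ESC (limma, −1.11 ± 0.18, adjusted p = 0.000264), where few members differed. It was higher in progenitors than in intermediate mesoderm (1.52 ± 0.18, adjusted p = 1.91e-06), lower in 8D organoids than in progenitors (−0.93 ± 0.19, adjusted p = 0.00105), higher in 21D than in 8D organoids (0.68 ± 0.18, adjusted p = 0.0172) and higher in adult than in embryonic kidneys (1.68 ± 0.16, adjusted p = 2.53e-09). Between progenitors and embryonic kidneys Mybl2 did not pass (−0.19 ± 0.37, adjusted p = 0.74), and it was higher in 8D organoids than in embryonic kidneys (2.09 ± 0.37, adjusted p = 0.000228).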

How the data were processed

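RNA of 30 samples, 3 per group, was hybridised to the Affymetrix Mouse Gene 2.0 ST array. The deposited values are log2 levels per gene symbol that the authors made from the raw array files with oligo and limma by RMA, which corrects background, quantile-normalizes across arrays and summarizes probes. Software versions were not given in the sources used here, and neither was any batch correction or the way several probe sets of 1 gene were merged. Levels of different genes are not comparable, since probes differ in brightness. Precision is limited by having 3 arrays a group. Array medians lay between 5.757 and 5.941, and 0 pairs of arrays were identical.

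The values were used as deposited. A linear model with a coefficient for each of 10 groups and a term for batch was fitted to all 23986 genes in limma 3.58.1 (R 4.3.3; lmFit and eBayes, 19 residual degrees of freedom). The 13 comparisons are contrasts of it, with both embryonic ages weighted equally where embryonic kidneys are named. A gene was called at a Benjamini-Hochberg adjusted p under 0.05 over all genes, and groups did not overlap where all arrays of one lay beyond all of the other. The steps were tested on simulated data in which all groups shared the spread of each gene and changes were added to mesoderm alone. That test does not cover the wider spread of the progenitor arrays. Figures were drawn with matplotlib 3.10.9. Promoter sequences came from a RefSeq table.

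The 40 genes, the other mitosis lists and the marker lists were chosen with earlier results of these data known. Genes were named by rule: the 6 called members with the largest change in a comparison, any called member that moved against the majority (there was none), up to 2 more per role, the 4 members with the smallest range, and up to 3 called genes of the other lists per direction, with Foxm1 and Mybl2 always. Where the rule gave more genes than are useful to print, some are covered by counts alone. Members that did not pass, and the examples of marker genes, were named after their values were seen. Alternatives were array weights, no batch term, batch 2 alone, the compared arrays alone, a replicate block, a filter on dim genes, quantile normalization, a trended and robust prior, and leaving out each array. Batch 1 held 1 array of each of its groups, which allows no test within it.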

Additional observations from a re-analysis of the deposited data

How the results depend on the processing

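The direction of every called member held under all alternatives run, and the counts of called members moved by no more than 1.5 times under no batch term, the filter on dim genes, quantile normalization and the trended and robust prior. With array weights, 2 members were called between mesoderm and ESC, 8 between intermediate mesoderm and mesoderm, and 5 between 14D and 8D organoids. With batch 2 alone, 1 was called between 14D and 8D organoids. Fitting the compared arrays alone leaves fewer degrees of freedom, and the spread is then that of those arrays and not of all 10 groups. In that setting 5 were called between intermediate mesoderm and mesoderm, 13 between progenitors and intermediate mesoderm, and 17 between 8D organoids and progenitors. Between 21D and 8D organoids 17 were called, and 5 between 8D organoids and embryonic kidneys. Leaving out 1 array gave 0 to 1 called for mesoderm against ESC, for intermediate mesoderm against mesoderm (1 without mesoderm replicate 1) and for 14D against 8D organoids (1 without 8D organoid replicate 2), and 31 to 38 for progenitors against intermediate mesoderm. It gave 35 to 39 for progenitors against ESC, 31 to 40 for progenitors against embryonic kidneys, 30 to 37 for 8D organoids against progenitors, and 22 to 36 for 21D against 8D organoids. It gave 1 to 2 for 8D organoids against embryonic kidneys, 40 for 8D organoids and for embryonic kidneys against the adult kidney, 39 to 40 for 21D organoids against the adult kidney, and 0 for E13.5 against E12.5. Deviations from the group means had a median correlation of 0.009 over 135 pairs of arrays with the same replicate number and −0.006 over 270 pairs of different numbers. Of these pairs, 19 and 26 were over 0.1, with highest values of 0.524 and 0.511. A median over all groups cannot exclude pairing within a few of them. With the replicate block, the calls were 1, 0, 38, 38 and 38 for mesoderm against ESC, intermediate mesoderm against mesoderm, and progenitors against intermediate mesoderm, ESC and embryonic kidneys, and 35, 0, 38 and 2 for 8D organoids against progenitors, 14D and 21D against 8D organoids and 8D organoids against embryonic kidneys. They were 40 in each comparison with the adult kidney and 0 for E13.5 against E12.5. The filter on dim genes moved the median of all genes to −0.22 in adult against embryonic kidneys. Levels near background limit the folds against the adult kidney.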
